A study of Mus musculus with 2 samples.

Results

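Txnip and 9 genes of antioxidant defence were followed through the cells of mouse pancreatic islets, 10 of the 31053 genes listed in the count files. The genes were chosen by symbol and comprised *Txnip*, *Txn1*, *Txnrd1*, *Gpx1*, *Gpx3*, *Gpx4*, *Cat*, *Sod1*, *Sod2* and *Hmox1*. No rule on measured values was used, but earlier results of these data were known when the genes were picked, so the choice may not be independent of them.

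Cells remove superoxide with superoxide dismutases, which make hydrogen peroxide, and remove the peroxide with catalase, glutathione peroxidases and the thioredoxin system. Thioredoxin is a small protein that reduces oxidized proteins and is itself recharged by thioredoxin reductase. TXNIP binds thioredoxin and blocks it, is induced by glucose in β cells, and has long been studied as a driver of β cell death, while β cells are known for low catalase.

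Single-cell RNA sequencing compared 2 islet libraries, both made from male C57/B6 mice of 16 weeks. The HFD (high-fat diet) mice had been fed a diet carrying 60% of its kcal as fat since week 6 of life, for 10 weeks, whereas the labels state no diet for the WT (wild-type) mice, which by the study's general methods ate standard chow. Each library pooled the islets of 4 animals, so a group was 1 library and single animals could not be told apart. No test of the diet was possible, and every 95% interval below covers counting error only. Diet, library and the depth of the library cannot be told apart.

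After filtering, 2519 WT and 6774 HFD cells were kept. Classes were named from clusters and are written β-like, α-like and so on. The β-like cells numbered 1700 in WT and 5581 in HFD, with medians of 29558.5 and 11931 UMIs (unique molecular identifiers, one for each captured transcript). All 10 β markers were detected in them. Levels below are CPM, the UMIs of a gene for every 1000000 UMIs of a class in a library. The other classes with at least 30 cells in each library were α-like (72 WT and 223 HFD), δ-like (58 and 120), endothelial-like (173 and 155), ductal-like (61 and 35) and macrophage-like (39 and 45). The α-like cluster also held cells with *Ppy* and *Pyy*, the δ-like cluster had *Ghrl*, *Ppy* and *Pyy* among its leading genes, and the endothelial-like cluster held pericyte markers. The β-like cells of the 2 libraries lay in different clusters. Of the WT cells 38.2% were in cluster 0, 37.8% in cluster 7 and 14.7% in cluster 5, whereas these clusters held 1.11%, 6.54% and 0.484% of the HFD cells, most of which were in clusters 3, 4, 6, 8, 10, 11 and 21. Cluster 5 was led by interferon-induced genes such as *Ifit1*, clusters 10 and 11 by haemoglobin genes, and clusters 6 and 11 also by the stress genes *Chac1* and *Trib3*. The libraries had 9 barcodes in common, 2 of them among the kept cells.

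The promoters of *Txnip* and of *Arrdc4*, an α-arrestin relative, are shown because the levels of these paralogs differed in opposite directions between the β-like cells of the libraries. Each line gives the 250 bases before the RefSeq start (GRCm38.p6, the build of the files), written 5′ to 3′ on the strand of the gene. The regions are chr3:96557707-96557956 on the plus strand and chr7:68749239-68749488 on the minus strand.
Txnip: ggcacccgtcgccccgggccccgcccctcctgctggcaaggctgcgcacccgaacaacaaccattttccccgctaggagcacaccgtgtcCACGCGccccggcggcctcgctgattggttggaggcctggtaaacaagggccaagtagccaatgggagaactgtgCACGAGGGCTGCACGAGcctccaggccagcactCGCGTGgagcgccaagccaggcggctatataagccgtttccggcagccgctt
Arrdc4: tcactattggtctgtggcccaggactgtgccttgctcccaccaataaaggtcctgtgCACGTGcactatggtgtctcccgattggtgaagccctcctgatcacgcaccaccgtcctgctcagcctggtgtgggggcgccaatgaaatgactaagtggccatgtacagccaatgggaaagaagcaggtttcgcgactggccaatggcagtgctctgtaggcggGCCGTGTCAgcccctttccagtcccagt
Capitals mark matches, on either strand, to CACGTG (the E-box), to CACGNG (its looser form, which includes every CACGTG) and to TGACNNNGC (the core of the antioxidant response element), and also the 5 bases between the paired matches of *Txnip*. *Txnip* held 4 CACGNG matches. A pair of them stood 5 bases apart, the spacing of the carbohydrate response element read by the glucose sensor ChREBP (*Mlxipl*), from 85 to 69 bases before the start. Such a pair occurred in 16 of the 32851 promoter windows of the RefSeq table, which run from 250 bases before to 50 after a start (0.0487%). *Arrdc4* held 1 CACGTG, 193 to 188 bases before the start, and 1 TGACNNNGC match. In the same windows CACGNG occurred in 27.5%, CACGTG in 7.15% and TGACNNNGC in 12.4%. Of the 10 genes, 9 had a promoter in the RefSeq table, with 14 windows in all. TGACNNNGC matched windows of *Txnrd1* and *Sod1*, and CACGNG matched windows of *Txnrd1*, *Gpx4* and *Sod2* besides *Txnip*. A match is a run of letters and not evidence of binding.

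*Txnip* (ENSMUSG00000038393, chr3:96557957-96561857) was lower in HFD than in WT β-like cells. It stood at 118 CPM in WT (6619 UMIs, interval 115 to 121) and at 79.0 in HFD (5998 UMIs, 77.0 to 81.0). The HFD level was 0.669 of the WT level (0.646 to 0.693), just short of a 1.5-fold difference. Among the 12112 genes with at least 50 UMIs, about 5% had a lower ratio.

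**Figure D1:**
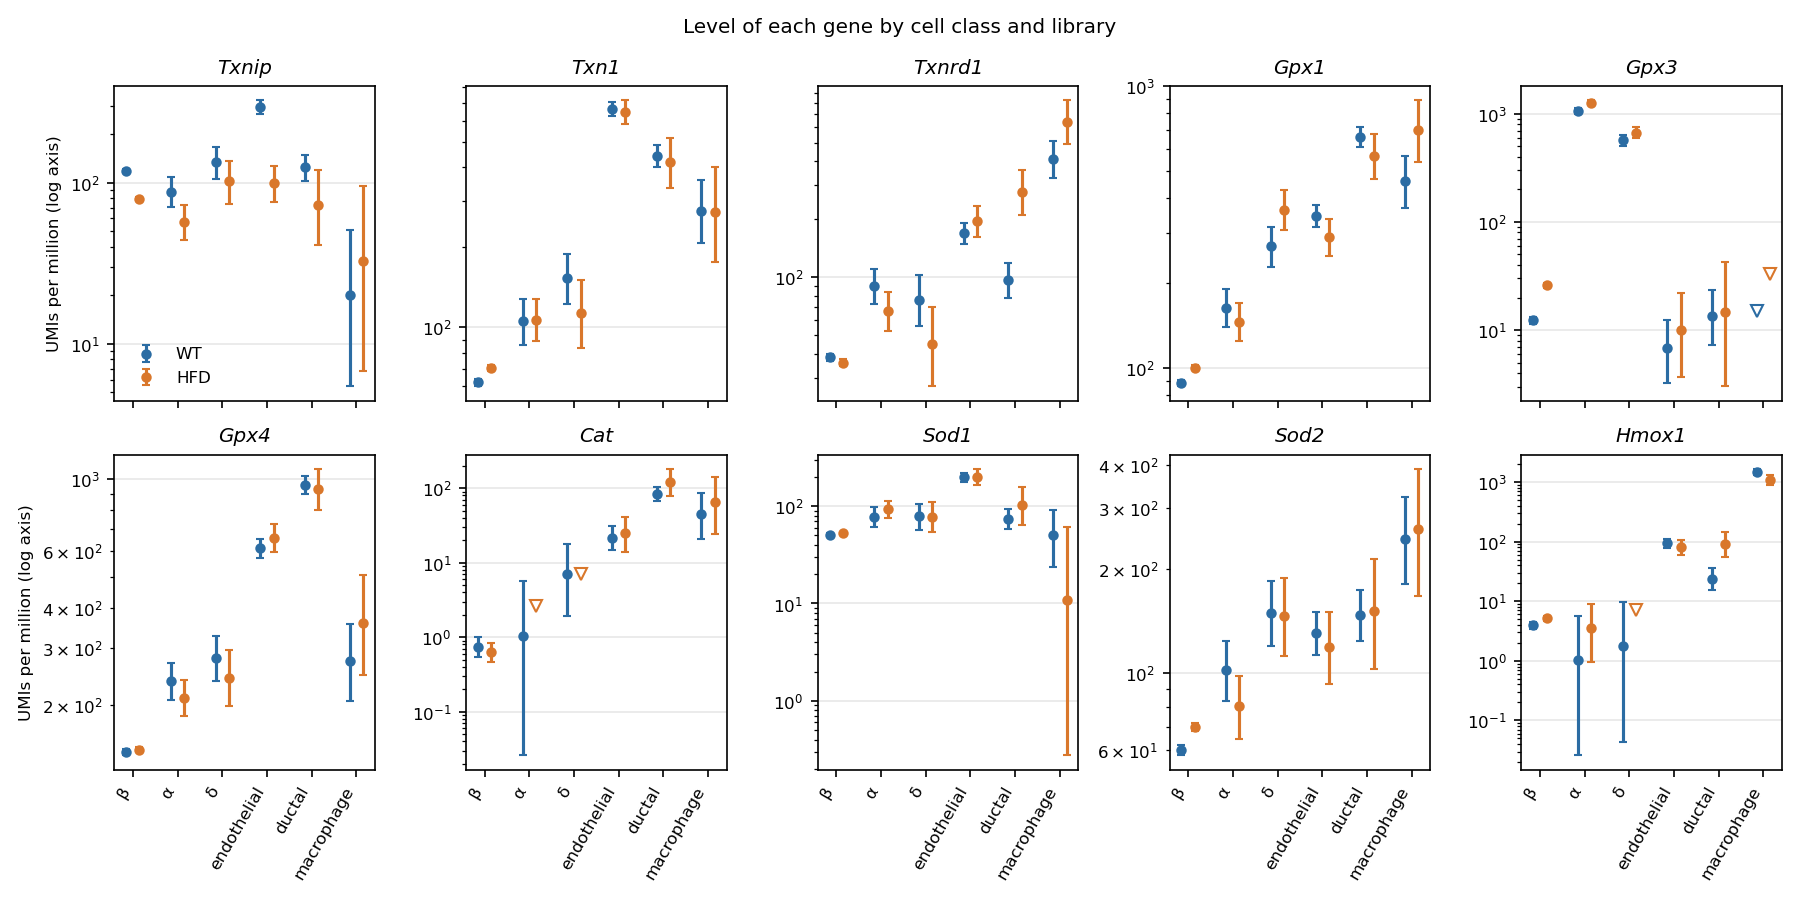
CPM (log axes, which differ between panels) of each of the 10 genes in 6 cell classes of the WT and HFD libraries, with exact 95% Poisson intervals. Open triangles mark a count of 0 and stand at the level of 3 counts. *Cat* in β-like cells was below 1 CPM in both libraries, and *Gpx3* exceeded 500 in α-like and δ-like cells.

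*Txnip* was also lower in HFD in other classes of the same libraries. In α-like cells it was 87.9 in WT and 57.3 in HFD, a ratio of 0.652 (0.465 to 0.910). In endothelial-like cells it was 295 in WT (435 UMIs) and 98.9 in HFD (59 UMIs), the largest difference of the 6 classes, with a ratio of 0.335 (0.251 to 0.441). Fewer than 1% of the genes counted in endothelial-like cells had a lower ratio. The endothelial markers summed to 19053 CPM in WT and 18871 in HFD in these cells, and 4 of 8 were higher in HFD. Their ductal markers summed to 348 and 8.39 CPM and their macrophage markers to 128 and 31.9, and whether these other cells contributed to the *Txnip* difference was not tested. In δ-like cells *Txnip* stood at 134 and 102 (0.760, 0.511 to 1.12) and in ductal-like cells at 124 and 73.1 (0.588, 0.319 to 1.01, with 15 HFD UMIs), so both intervals reached 1. Macrophage-like cells held 4 and 3 UMIs, too few to compare.

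The order of *Txnip* levels over classes was endothelial-like, δ-like, ductal-like, β-like, α-like and macrophage-like in WT. Of these neighbours, δ-like and ductal-like overlapped in their intervals, as did ductal-like and β-like. In HFD the order was δ-like, endothelial-like, β-like, ductal-like, α-like and macrophage-like, and each class overlapped with the next.

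The lower *Txnip* level was not uniform over β-like cells. Split by UMIs per cell, HFD was the lower library in 5 of 5 bins, with ratios from 0.510 to 0.977. Split by mitochondrial share, HFD was lower in 4 of 4 bins (0.617 to 0.853). In cells above 15000 and up to 30000 UMIs it was 119 in WT (705 cells) and 72.0 in HFD (1738 cells). In cells above 5000 and up to 10000 UMIs it was 91.7 in WT, from 40 cells and with an interval of 60.9 to 133, and 89.6 in HFD. Intervals of the 2 libraries overlapped in that bin and in none of the other 4.

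Split by cluster, the direction differed between clusters. In cluster 0, *Txnip* was 142 in WT (649 cells) and 172 in HFD (62 cells), with intervals that overlapped (137 to 146 and 142 to 207). In cluster 7 it was 111 in WT (643 cells) and 140 in HFD (365 cells), with intervals that did not. In cluster 8 it was 53.8 and 56.2. It was lower in HFD in cluster 11, at 146 in WT (12 cells, 105 to 196) and 99.5 in HFD, and in cluster 21, at 161 in WT (13 cells, 110 to 229) and 57.0 in HFD (52.3 to 62.1). Over the 7 clusters with at least 10 cells of each library, HFD was higher in 4 (0, 5, 7 and 8) and lower in 3 (10, 11 and 21). The first 4 held 649, 250, 643 and 101 WT cells and 62, 27, 365 and 463 HFD cells. The other 3 held only 11, 12 and 13 WT cells. In cluster 5 *Txnip* was 74.1 in WT and 92.2 in HFD, with intervals that overlapped. The clusters with nearly only HFD cells had lower levels than WT cluster 0, at 62.7 in cluster 3 and 70.6 in cluster 4. Clusters 0 and 7 had *Fos*, *Btg2* and *Rasd1* among their leading genes, and cluster 8, the lowest for *Txnip*, had mitochondrial genes. In clusters 7 and 8 together, chosen after seeing the data, the log2 ratio of HFD to WT was -0.16, beside -0.58 in all β-like cells. This sum was lower in HFD although each of the clusters alone was higher. Cluster 8, with less *Txnip*, held 101 WT and 463 HFD cells, and cluster 7 held 643 and 365. A cluster mostly of 1 library may reflect that library, and neither the 10 genes nor the listed pathway genes were used for clustering.

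Counted per cell, at least 1 *Txnip* UMI was found in 80.7% of WT and 50.1% of HFD β-like cells at their own depths. After each cell was thinned to 2000 UMIs, which left out 10 WT and 9 HFD cells, the shares were 20.2% (exact binomial interval 18.3 to 22.2) and 14.3% (13.4 to 15.3). The HFD library was the lower in both counts. Macrophage-like cells, the class with least *Txnip* and median depths of 5060 and 2050 UMIs, had a UMI in 3 of 39 WT and 2 of 45 HFD cells. A thinned HFD cell held up to 6 *Txnip* UMIs and a thinned WT cell up to 3. The variance of thinned counts was 1.25 times their mean in HFD, above 98.7% of the 634 genes of like mean, and 1.08 times in WT, above 90.1% of 405.

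**Figure D2:**
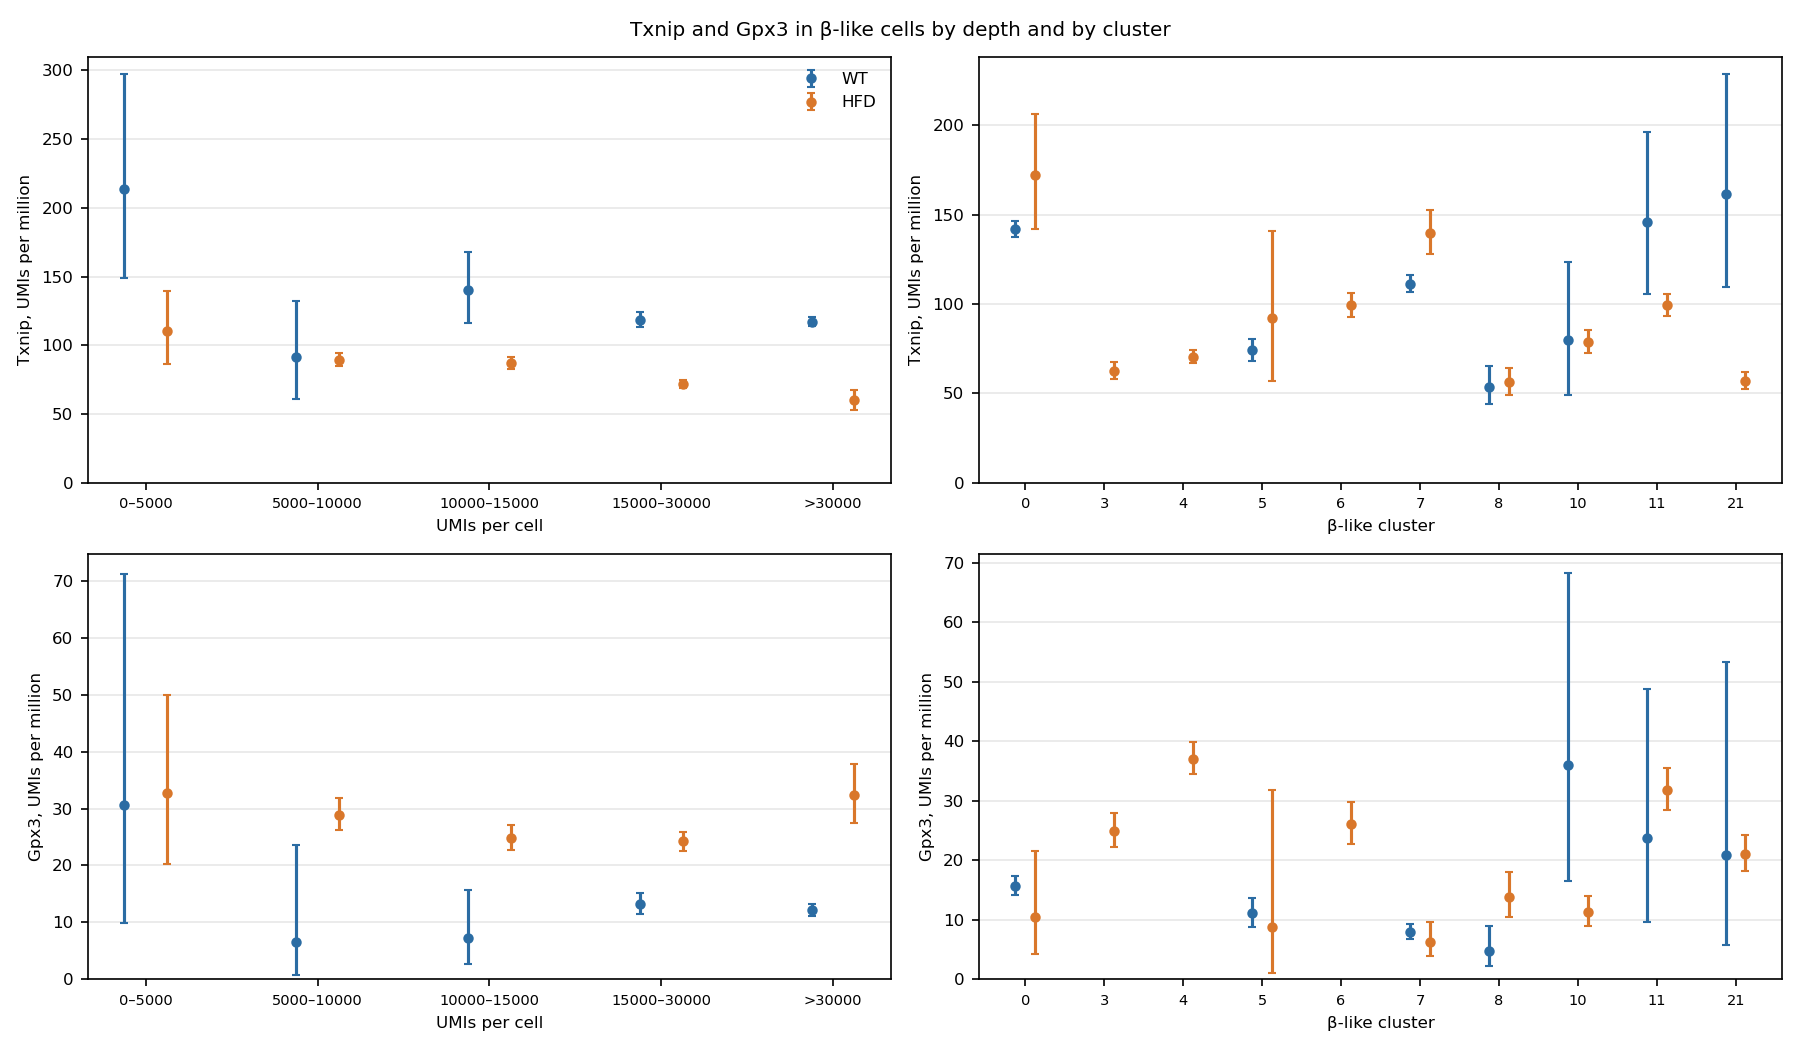
*Txnip* (top) and *Gpx3* (bottom) in CPM of β-like cells, split by UMIs per cell (left) and by cluster (right), WT and HFD, with exact 95% Poisson intervals and only where a library had at least 10 cells. *Txnip* was lower in HFD in 5 of 5 depth bins but higher in HFD in cluster 7, at 140 against 111.

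*Arrdc4* (chr7:68736994-68749238) had far fewer UMIs than *Txnip*. It stood at 5.12 CPM in WT and 6.78 in HFD β-like cells, a ratio of 1.33 (1.15 to 1.54). *Mlxipl*, the gene of ChREBP, stood at 68.5 in WT and 51.1 in HFD, a ratio of 0.745 (0.713 to 0.780). The 5 genes whose levels on the log2(CPM + 1) scale ran closest to those of *Txnip* over the 12 pairs of class and library were *Rasd1* (Pearson r = 0.93), *Selenot* (0.92), *Unc50* (0.90), *Glg1* (0.90) and *Zcchc14* (0.89), of 5556 genes. *Rasd1*, a glucocorticoid-induced Ras-like gene, was 72.1 in WT and 14.8 in HFD β-like cells. The pairs share libraries, so the values of r are descriptions.

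The other genes of the thioredoxin system differed little between the β-like cells of the libraries. *Txn1* (chr4:57943373-57956411), thioredoxin itself, stood at 62.0 in WT and 70.5 in HFD, a ratio of 1.14 (1.09 to 1.19). *Txnrd1* (chr10:82833951-82897724), the cytosolic reductase, stood at 38.3 and 36.0, a ratio of 0.939 (0.887 to 0.994). In α-like cells *Txnrd1* was 89.9 and 67.0, and in δ-like cells 76.5 and 45.0 (19 HFD UMIs), and both intervals of the ratio reached 1.

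*Txnrd1* was higher in HFD in ductal-like cells. It stood at 96.1 in WT (92 UMIs) and 278 in HFD (57 UMIs), a ratio of 2.89 (2.04 to 4.07). Its ratio exceeded that of 99.4% of the genes counted there. Acinar markers summed to 544 and 1437 CPM in these cells, with 6 of 6 higher in HFD. They were 6 of 6 higher in each of the other classes compared too, with ratios of the sums from 2.20 to 3.38. Acinar-like cells, only 10 in WT and 4 in HFD, held 0 *Txnrd1* UMIs. The part of acinar RNA in the result was not tested. In macrophage-like cells it was 410 in WT and 643 in HFD, a ratio of 1.57 (1.10 to 2.22) that turned below 1 after thinning. β markers summed to 7207 and 18296 CPM in the macrophage-like cells, with 8 of 10 higher in HFD. At the *Txnrd1* to *Ins2* ratio of β-like cells, the *Ins2* there would come with 0.415 *Txnrd1* CPM in WT and 0.999 in HFD. The part of β RNA in the difference was not tested either. *Hmox1*, like *Txnrd1* a target of the transcription factor NRF2, was 24.0 in WT and 92.6 in HFD ductal-like cells, from 23 and 19 UMIs, under the 50 needed to count it.

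Of the glutathione peroxidases, 2 differed little and *Gpx3* was higher in HFD. *Gpx4* (chr10:80047166-80056439), which reduces lipid peroxides, had the highest UMI level of the 10 genes in β-like cells, at 143 in WT and 146 in HFD (ratio 1.02, 0.988 to 1.05). *Gpx1* (chr9:108339080-108340342), the main cytosolic enzyme, stood at 88.3 and 100.2 (1.13, 1.09 to 1.18), but was lower in HFD in 2 of 5 depth bins. *Gpx3* (chr11:54902854-54910387), the secreted form, was 12.4 CPM in WT (694 UMIs) and 25.8 in HFD (1962 UMIs), a ratio of 2.09 (1.91 to 2.28), higher than that of 98.6% of the genes counted.

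*Gpx3* was far higher in α-like, δ-like and fibroblast-like than in β-like cells. It stood at 1061 in WT and 1265 in HFD α-like cells (ratio 1.19, 1.10 to 1.29) and at 567 and 668 in δ-like cells (1.18, 1.0004 to 1.39). Fibroblast-like cells, with 58 WT and only 23 HFD cells, reached 1215 and 1656. Macrophage-like cells held no *Gpx3* UMI in either library, with intervals up to 18.4 CPM in WT and 40.2 in HFD. The hormones of those islet cells were read beside it. *Gcg*, the glucagon gene, was 222 CPM in WT and 144 in HFD β-like cells, and *Sst*, the somatostatin gene, was 40.7 and 27.0, both lower in HFD. At the *Gpx3* to *Gcg* ratio of α-like cells, that *Gcg* would come with 1.18 *Gpx3* CPM in WT and 0.690 in HFD. The summed α markers were 1113 in WT and 1872 in HFD, with 2 of 8 higher in HFD, and the acinar markers 146 and 416, with 6 of 6 higher. Their part in the *Gpx3* difference was not tested.

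*Gpx3* in HFD β-like cells ranged over clusters from 6.29 in cluster 7 to 37.1 in cluster 4. It was 15.7 in WT and 10.5 in HFD cells of cluster 0, 7.92 and 6.29 in cluster 7, and 4.75 and 13.8 in cluster 8. HFD was higher in 3 of 7 clusters and in 5 of 5 depth bins. Clusters 3, 4, 6 and 11, each with at most 12 WT cells, had HFD levels of 24.9 to 37.1, whereas cluster 10, with 11 WT cells, had 35.9 in WT and 11.3 in HFD. Joining unnamed cluster 1, whose cells carried β markers and a second islet hormone, lowered the ratio to 0.14 on the log2 scale, and restricting cells to clusters 7 and 8 lowered it to 0.43. Both choices were made after seeing the data. A *Gpx3* UMI was found in 15.8% of WT and 18% of HFD β-like cells at their own depths, and in 1.60% (1.06 to 2.32) and 5.03% (4.47 to 5.63) after thinning to 2000 UMIs.

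*Cat* (chr2:103453904-103485153), the gene of catalase, gave few UMIs in β-like cells. It gave 42 UMIs over 1700 WT cells, or 0.749 CPM (0.540 to 1.01), and 48 UMIs over 5581 HFD cells, or 0.632 (0.466 to 0.838). The ratio was 0.844 (0.546 to 1.31). Ductal-like cells had 84.6 in WT and 122 in HFD, macrophage-like cells 45.0 and 65.3, and endothelial-like cells 21.7 and 25.2. The ductal-like level was 113 times that of β-like cells in WT and 193 times in HFD. *Cat* gave 1 UMI in WT and 0 in HFD α-like cells, and 4 and 0 in δ-like cells. The interval of a count of 0 reached 3.25 CPM in HFD α-like and 8.73 in HFD δ-like cells, so β-like cells were not separated from α-like cells.

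*Sod1* (chr16:90220762-90226333), the cytosolic copper-zinc enzyme, stood at 50.8 in WT and 52.5 in HFD β-like cells (ratio 1.04, 0.986 to 1.09). *Sod2* (chr17:13007839-13018119), the mitochondrial manganese enzyme, stood at 59.9 and 69.9 (1.17, 1.12 to 1.22). *Sod2* was highest in macrophage-like cells, at 245 and 261 (49 and 24 UMIs). Those intervals overlapped with that of δ-like cells in WT and that of ductal-like cells in HFD. Endothelial-like cells had the highest *Sod1*, at 197 and 200.

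*Hmox1* (chr8:75093618-75100593), which degrades haem, was at 3.94 in WT and 5.14 in HFD β-like cells (ratio 1.30, 1.10 to 1.54). Macrophage-like cells had 1463 and 1089 (0.744, 0.587 to 0.937), and endothelial-like cells 93.6 and 82.2. *Hmox1* in β-like cells was 0.269% of its macrophage-like level in WT and 0.472% in HFD. Of the 7 macrophage markers, 6 were at 0 to 0.0469% of theirs in WT and at 0.0147 to 0.0987% in HFD, and *C1qa* was at 0.785% and 1.01%. All 7 were higher in HFD β-like cells. Their part in the *Hmox1* difference was not tested. In cells binned by depth, *Hmox1* was higher in HFD in 1 of 5 bins, whereas it was higher in 4 of 4 bins of mitochondrial share. The depth bins up to 15000 UMIs held only 2, 2 and 6 WT *Hmox1* UMIs. In the deeper bins it was 5.09 in WT and 4.65 in HFD, and 3.34 and 3.38. Intervals of the libraries overlapped in every depth bin. The pooled direction was thus not seen within depth, nor was the reverse separated.

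**Figure D3:**
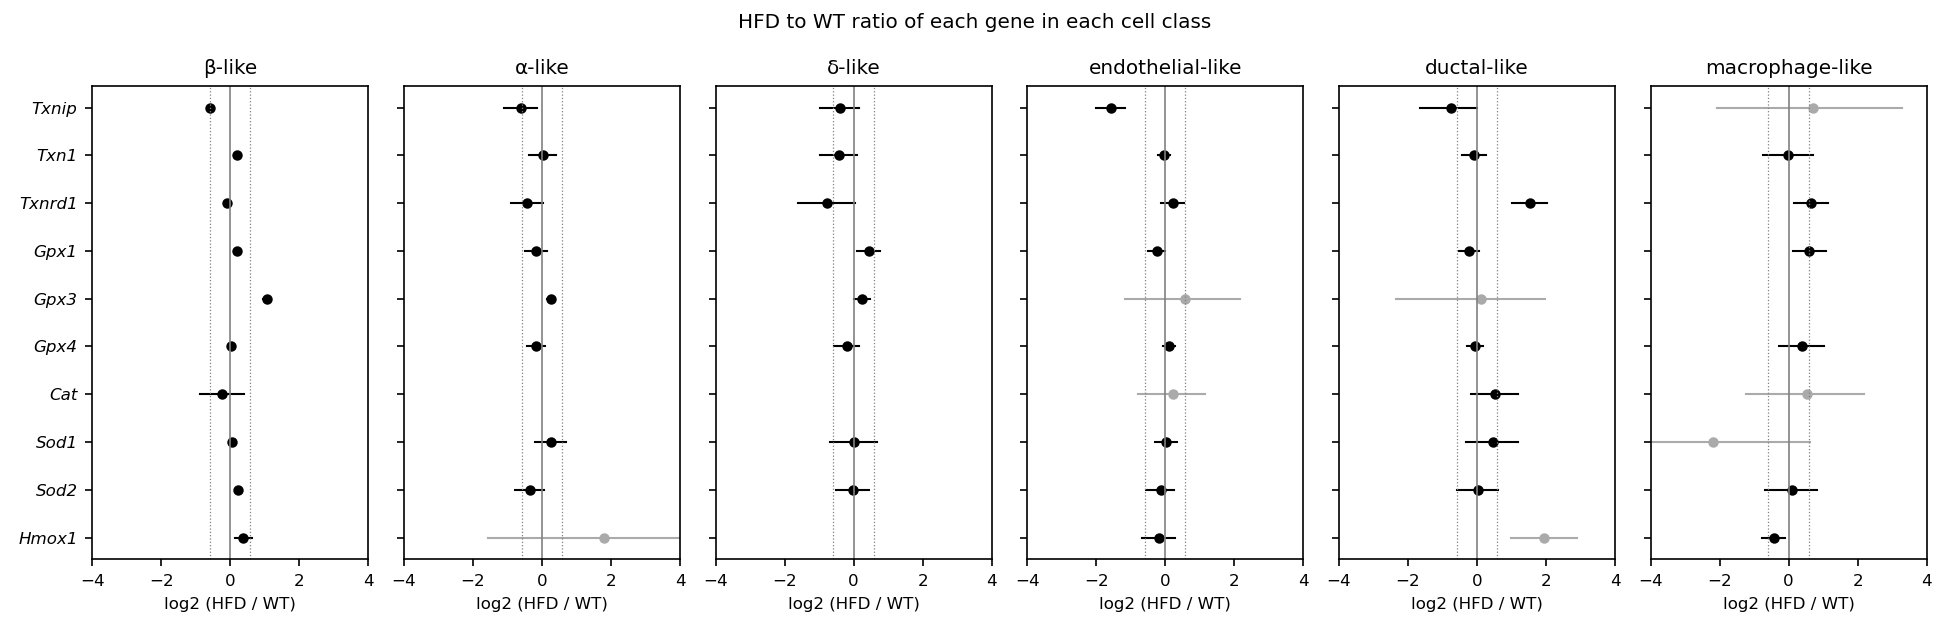
log2 ratio of the HFD to the WT level of each gene in each class, with exact 95% intervals of the ratio cropped at 4 on either side. Black points had at least 50 UMIs over the 2 libraries, grey points fewer, and genes with a count of 0 are left out. Dotted lines mark 1.5-fold. *Txnip* lay left of 0 in 5 of 6 classes and *Gpx3* right of 1.5-fold in β-like cells.

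Counted together in β-like cells, 1 of the 10 genes (*Gpx3*) was at least 1.5 times higher in HFD, where 3.87% of the 12112 genes were, and 0 were at least 1.5 times lower, where 4.88% were. Their median log2 ratio was 0.12, beside 0.20 for all genes above 100 CPM and -0.01 for all genes counted. Of the 10 genes only *Txnip*, *Gpx1* and *Gpx4* reached 100 CPM in these cells, so the first of these medians is of mostly higher-level genes. Relative to the median of genes above 100 CPM, the median gene of the settings below, *Txnip* was lower by more than 1.5-fold, at -0.78 on the log2 scale. *Gpx3* was higher, at 0.86. On the same footing the small differences of *Gpx4*, *Sod1*, *Gpx1* and *Txn1* turned to slightly lower in HFD.

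The other classes gave few calls. In α-like cells 1 of 8 genes with 50 UMIs was lower (*Txnip*) and 0 were higher, beside 7.93% and 3.01% of all genes counted. In δ-like cells 1 of 8 was lower (*Txnrd1*, with an interval that reached 1) and 0 higher, beside 4.33% and 8.65%. In endothelial-like cells 1 of 8 was lower (*Txnip*) and 0 higher, beside 12.3% and 6.07%. In ductal-like cells 1 of 8 was lower (*Txnip*, with an interval that reached 1 and a log2 ratio of 0.02 after thinning) and 1 higher (*Txnrd1*), beside 20.5% and 10.9%. In macrophage-like cells 2 of 6 were higher (*Txnrd1* and *Gpx1*) and 0 lower, beside 10.0% and 12.9%.

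Most of the 10 genes had a lower CPM in β-like than in endothelial-like, ductal-like and macrophage-like cells. Against endothelial-like cells 7 of 10 were at least 2 times lower in β-like cells in both libraries and 0 were higher, beside 40.0% and 6.88% of all genes. Against ductal-like cells the numbers were 7 and 0, beside 37.6% and 2.93%, and against macrophage-like cells 6 and 1 (*Txnip*, with 4 and 3 macrophage-like UMIs), beside 14.8% and 3.45%. Against δ-like cells 3 were lower (*Gpx1*, *Gpx3* and *Sod2*) and 0 higher, beside 24.8% and 0.896%. Against α-like cells only *Gpx3* was lower and 0 were higher, beside 16.5% and 2.38%. The largest of these differences were in *Hmox1*, 371 times higher in WT and 212 times higher in HFD macrophage-like cells, in *Cat*, and in *Gpx3*, 85.7 and 49.0 times higher in α-like cells. *Txnrd1* was 10.7 and 17.9 times higher in macrophage-like cells, and *Txn1* 10.7 and 9.18 times higher in endothelial-like cells.

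The share of UMIs taken by hormones bears on these levels. *Ins1* and *Ins2* made up 61.4% of the UMIs of WT and 57.4% of HFD β-like cells, which lowers the CPM of every other β gene. With islet hormone and mitochondrial genes left out of the total, *Cat* and *Hmox1* still stood far below their levels elsewhere. *Cat* was then 36.3 times higher in WT and 65.6 times higher in HFD ductal-like than β-like cells, and *Hmox1* 118 and 72.3 times higher in macrophage-like cells. *Txnrd1*, *Gpx1*, *Sod1*, *Sod2* and *Gpx4* were within 2-fold of the endothelial-like level in both libraries. All of these but *Sod2* had been called lower against endothelial-like cells on the full total. *Txnip* became higher in β-like than in α-like (2.45 times in WT and 2.39 times in HFD) and ductal-like cells (2.95 and 3.17 times).

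On this total, 3 genes were lower and 1 higher against endothelial-like cells, beside 14.6% and 26.7% of all genes, and 3 lower and 2 higher against ductal-like cells, beside 10.8% and 17.0%. Against macrophage-like cells 3 were lower and 3 higher, beside 5.59% and 20.9%. Against δ-like cells 1 was lower and 0 higher, beside 5.35% and 5.09%, and against α-like cells 1 was lower and 2 higher, beside 4.18% and 8.62%. Most of the higher calls rested on few UMIs of the other class. Against macrophage-like cells the genes were *Txnip* (4 WT and 3 HFD UMIs), *Sod1* (10 and 1) and *Gpx3* (0 and 0). The *Gpx3* ratio there was set by the 3-count floor. *Gpx3* had 10 and 6 UMIs in endothelial-like and 13 and 3 in ductal-like cells, and *Hmox1* 1 and 4 in α-like cells. *Txnip* was the other higher gene against ductal-like and α-like cells.

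*Ins2* marks how much β RNA the other classes carried. It was found in them at 0.704% to 13% of its β-like level in the same library. At that ratio, β RNA would account for 2.04% of the *Txnip* of WT and 4.35% of that of HFD endothelial-like cells, and for 11.4% and 5.89% of that of δ-like cells. The largest such share was 29.4%, for *Hmox1* in WT δ-like cells, which rested on 1 UMI. *Ins2* itself was 2.99 times higher in HFD than in WT α-like cells.

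The wider antioxidant pathways were read from 7 lists of 75 other genes. Of the 69 with at least 50 UMIs in β-like cells, 2 were at least 1.5 times higher in HFD and 3 lower, where 3.87% and 4.88% of all genes counted were, so neither number stood above the background. They had a median log2 ratio of 0.04, beside -0.01 for all genes counted. *Slc7a11*, the cystine importer that feeds glutathione synthesis, was 2.05 in WT (115 UMIs) and 6.03 in HFD (458 UMIs), a ratio of 2.94 (2.39 to 3.64). *Prdx4*, the peroxiredoxin of the endoplasmic reticulum, was 13.2 and 23.4, a ratio of 1.77 (1.63 to 1.93). *Nqo1*, an NRF2 target, was 2.37 and 1.41 (0.594, 0.456 to 0.772). The glutathione transferases *Gstm1*, at 27.5 and 17.0 (0.617, 0.573 to 0.665), and *Gstp1*, at 10.8 and 7.10 (0.656, 0.583 to 0.738), were lower in HFD. *Maff*, which encodes a small partner of NRF2, followed at 0.687, and *Gsto1* (1.49) and *Prdx6* (1.31) were on the higher side.

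**Figure D4:**
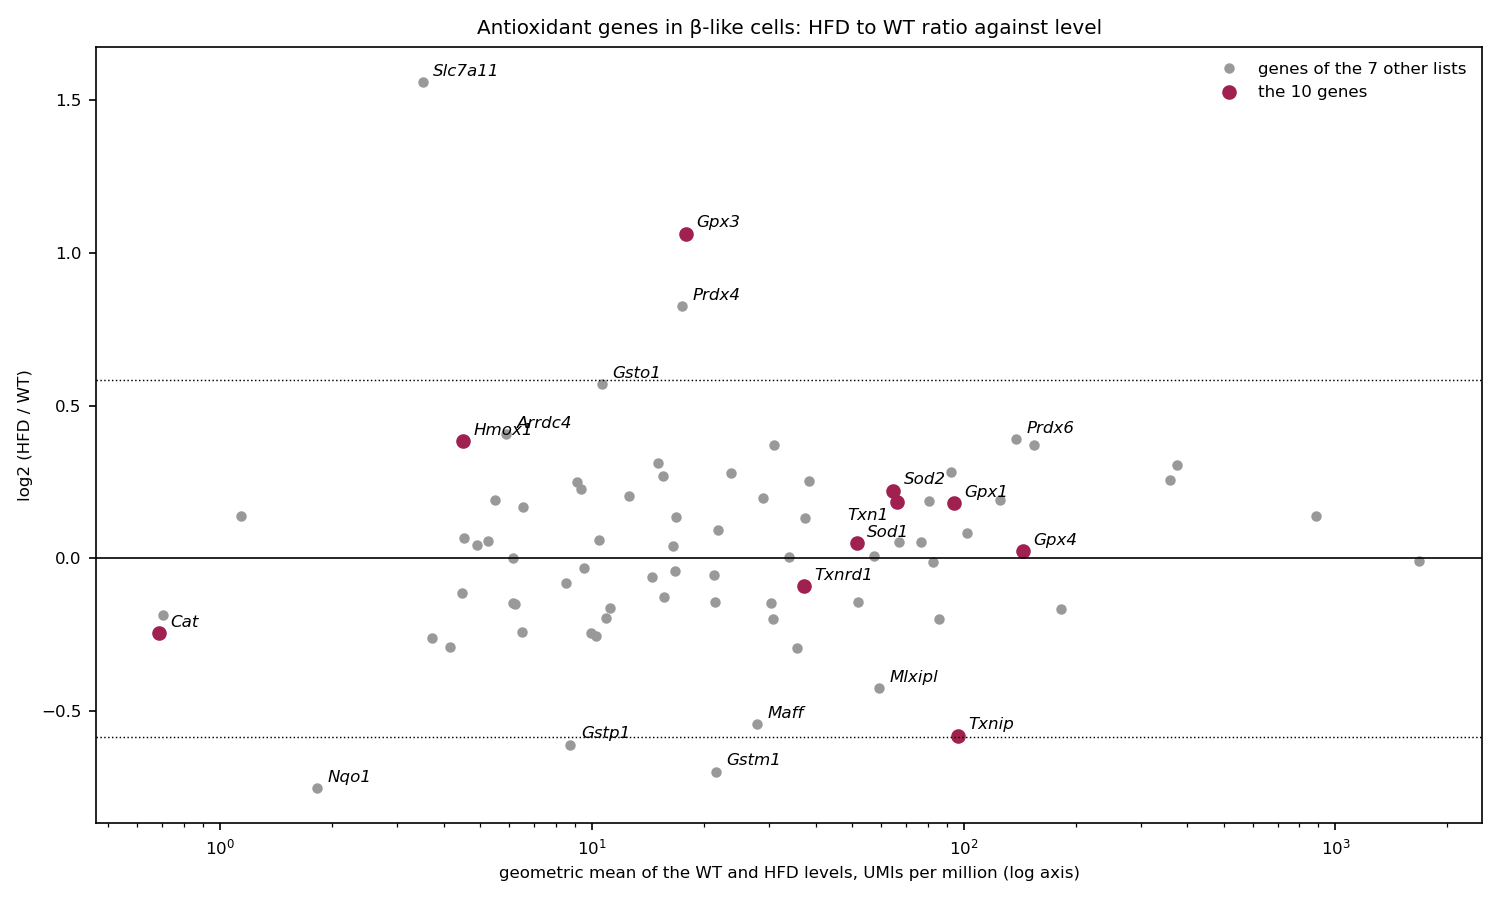
log2 ratio of the HFD to the WT level in β-like cells against the geometric mean of both levels (CPM, log axis), for the 10 genes and the counted genes of the 7 other lists. Dotted lines mark 1.5-fold. *Slc7a11*, *Gpx3* and *Prdx4* lay above the upper line and *Nqo1*, *Gstm1* and *Gstp1* below the lower one, with *Txnip* just inside it.

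By list, beside the same 3.87% and 4.88%, 1 of 11 genes of the thioredoxin system and peroxiredoxins was higher and 0 lower (median log2 ratio 0.17). Of 16 genes of glutathione synthesis and use, 1 was higher and 2 lower (0.09). Of 9 genes of NRF2 control and its targets, 0 were higher and 1 lower (-0.19). None of 6 genes of superoxide and haem handling, 7 of NADPH supply, 12 of methionine repair and selenoprotein synthesis or 8 relatives and controllers of *Txnip* was past 1.5-fold.

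Over the 12 pairs of class and library the genes fell into loose groups. *Txn1* and *Gpx4* ran together (r = 0.91), as did *Txnrd1* and *Hmox1* (0.91) and *Gpx1* and *Sod2* (0.90), whereas *Gpx3* ran against *Hmox1* (-0.89). The lowest levels of these last 2 genes were near the floor. *Gpx3* had 0 UMIs in macrophage-like cells of both libraries, and *Hmox1* had 1 WT and 4 HFD UMIs in α-like and 1 and 0 in δ-like cells. *Txnip* ran closest to *Sod1* among the 10 (0.63). The pairs share 2 libraries and differ in depth, so these are descriptions.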

How the data were processed

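Raw UMI counts per gene and barcode were deposited for both libraries. Dead cells were removed and 10x 3′ v3 libraries prepared, and the authors aligned and counted reads against mm10 using Cell Ranger v3.0.2, per the labels and the methods of the study. The files held 73843674 WT and 94375138 HFD UMIs. The 10 genes, the lists, the markers and the alternatives were chosen with earlier results of these data known. Barcodes with at least 500 genes and at most 20% mitochondrial UMIs were kept (2600 WT and 7297 HFD), with no UMI maximum. Scrublet (scanpy v1.11.5) called 10 WT and 0 HFD doublets, too few to be credible, so the highest scores were removed at 0.8% per 1000 barcodes, 81 WT and 523 HFD. Clustering used 2000 variable genes without hormones and the listed genes, 50 components, 15 neighbours and Leiden at resolution 1 (igraph v0.11.9). Fixed markers gave each cluster its name, by a scoring rule set after the clusters had been seen, and 325 WT and 387 HFD cells stayed unnamed. Reads shared with near-identical copies cannot be separated in these counts.

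Counts were summed per class and library. Levels have exact Poisson and ratios exact conditional 95% intervals, covering counting error only. A count of 0 stood at 3 counts of the library's class. Genes entered counts of calls with at least 50 UMIs over the cells compared. The ratio and its interval were tested on simulated Poisson counts, the model that the interval assumes. Those counts had no extra spread between cells or libraries, so the test could not show how the interval behaves under such spread. All 10 genes are described, and of the lists the 5 highest and 5 lowest ratios with 50 UMIs in each library are named. *Nnt* named more than 1 row and was left out. Normalization factors (TMM) came from edgeR v4.0.16.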

Additional observations from a re-analysis of the deposited data

Results flagged for a closer look

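The diet ratio of 3 of the 10 genes lay on one side of 1 in β-like cells and on the other side in another class, by their counting intervals. Other settings turned several of these directions, as given with each. With 1 library in each group none of these differences was tested.

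For *Txnrd1* the log2 ratio of HFD to WT was 1.53 in ductal-like and 0.65 in macrophage-like cells, against -0.09 in β-like cells. The macrophage-like value turned to -0.14 after thinning to 2000 UMIs, and the β-like value to 0.01 under stricter cluster naming and 0.30 in clusters 7 and 8 alone, both added after seeing the data, whereas the ductal-like value stayed between 1.10 and 1.77. For *Gpx1* it was -0.25 in endothelial-like and 0.18 in β-like cells, where it turned to -0.31 with at most 15000 UMIs per cell and to -0.02 when centred on the median gene, so that both classes were then on the same side. For *Hmox1* it was -0.43 in macrophage-like and 0.38 in β-like cells, where it turned to -0.39 with at most 15000 UMIs per cell. HFD *Hmox1* was lower in 4 of 5 depth bins, with intervals that overlapped in each. The limit of 15000 UMIs left 161 WT and 3702 HFD β-like cells. The WT cells under it held 2, 2 and 6 *Hmox1* UMIs in their depth bins. The ductal-like values rested on 61 WT and 35 HFD cells and the macrophage-like values on 39 and 45.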

How the results depend on the processing

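No paired analysis was possible because each group held 1 library, and no library could be left out. *Txnip* in β-like cells kept its direction in 16 of 16 alternatives, with log2 ratios from -0.78 to -0.16, and so did *Gpx3*, from 0.14 to 1.71. The lowest sizes came from clusters 7 and 8 alone (*Txnip*) and from joining cluster 1 (*Gpx3*), both added after seeing the data. Within cluster 7 and within cluster 8 *Txnip* was higher in HFD, so the -0.16 of their sum is not a direction kept within clusters. *Txnip* in endothelial-like cells ranged from -1.83 to -1.36, and was -1.61 in cells with more endothelial than pericyte UMIs, also added later. The alternatives with another clustering were named anew, and δ-like cells had no class of their own at resolution 0.5.

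The number of genes 1.5 times lower in HFD β-like cells, 0 in the main setting, became 1 with at most 15000 UMIs per cell, with no doublets removed, without hormone and mitochondrial genes in the total, centred on the median gene, and with cluster 1. The gene was *Txnip*, and with at most 15000 UMIs 21.2% of all genes were lower too. The number higher, 1, became 0 with cluster 1 and with clusters 7 and 8 alone. The genes higher in β-like than endothelial-like cells, 0, became 1 with at most 15000 UMIs, with no doublets removed, with each cell weighted alike, with cluster 1 and without hormones in the total. Without hormones in the total, the genes higher in β-like cells became 2 against α-like, 2 against ductal-like and 3 against macrophage-like cells, and those lower 1 against δ-like and 3 each against endothelial-like, ductal-like and macrophage-like cells. Most of these higher calls rested on few UMIs of the other class, as given above. With each cell weighted alike 2 genes were lower against α-like cells. Thinned to 2000 UMIs, 4 were lower against ductal-like and 0 higher against macrophage-like cells, and the log2 ratio of *Txnip* in ductal-like cells turned to 0.02 and that of *Txnrd1* in macrophage-like cells to -0.14. With cluster 1, 1 was higher against ductal-like cells. The causes were not tested, except that dividing by a smaller total raises every β gene by construction. Small classes limit depth: macrophage-like cells left 630 genes with 50 UMIs.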

Other observations

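Unnamed cluster 1 held cells with β markers and *Sst*, *Ppy*, *Pyy* or *Ghrl*, 171 in WT and 325 in HFD. *Gpx3* stood there at 178 CPM in WT (169 to 188) and 147 in HFD (137 to 157), above every β-like cluster and below α-like cells. *Txnip* was 163 in WT and 106 in HFD. Its *Gcg* was 5.85% of the α-like level in WT and 2.57% in HFD, and its *Sst* 10.6% and 8.24% of the δ-like level. Whether these barcodes held 1 cell or 2 was not tested.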
